A study of Mus musculus with 15 samples.

Results

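Cocktail-grown CD44loCD62L+ CD8 T cells were compared with naive CD8 T cells that had not been cultured, a pair of populations with a like surface gate and a different history. The comparison was defined by the sample labels alone and took 6 of the 15 RNA-seq libraries of the study, 3 per population. Both populations came from OT-I mice, whose CD8 T cells carry a transgenic T cell receptor for the ovalbumin peptide SIINFEKL on H-2Kb. The cocktail cells met SIINFEKL-coated bone marrow dendritic cells and spent 14 days in TWS119, an inhibitor of the kinase GSK-3, 2-deoxyglucose, an inhibitor of glycolysis, and the cytokines IL-21 and IL-7. The first-day set-up was repeated after a week, and CD44loCD62L+ cells were then sorted. The naive cells are labelled with 0 days in vitro and with neither cocktail nor IL-2. Their gate reads CD44loCD62L+ in the sample labels and CD44-CD62L+ in the description of the study. The 3 libraries of a population are described as technical replicates, so p-values here measure the spread between libraries made from 1 RNA source, not between mice or cultures. Labels name neither a strain background beyond OT-I nor the age or number of the mice. The other 9 libraries (cocktail CD44+CD62L+, cocktail CD44+CD62L-, and CD44+CD62L- cells kept in IL-2 for 14 days) entered the same fit and serve as reference levels where named.

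Naive CD8 T cells circulate through lymph nodes in a resting state, carrying CCR7 for entry and S1P receptor 1 for exit, and depend on IL-7 and contact with MHC class I for survival. Antigen drives them into division and into effector genes such as those for granzymes and interferon gamma, and raises the adhesion receptor CD44. Some progeny keep or regain CD62L and form central memory or stem cell memory cells, and the latter are known for a surface phenotype close to that of naive cells.

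Levels are FPKM (fragments normalized to transcript length and library size) as the authors deposited them. Fold changes are the cocktail CD44loCD62L+ level over the naive level on the log2(FPKM + 1) scale, which understates changes of low genes, with the standard error (SE). Adjusted p-values are from limma with Benjamini-Hochberg adjustment over the 11242 genes tested. A gene was called higher or lower at an adjusted p under 0.05 together with a log2 fold change of 1 or more in either direction.

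FPKM sums ran from 669341 to 781949 over the 15 libraries. The number of fragments is not in the table, and its size relative to naive library 1, read from the steps between low values, was 1.24 to 1.26 in the cocktail CD44loCD62L+ libraries and 1.01 to 1.02 in the other naive libraries. This is an estimate: 44.4% to 55.2% of the ratios between low values lay within 1% of a ratio of small whole numbers. Small RNA genes took 11.7% to 17.3% of the FPKM sum in the naive and 5.82% to 8.97% in the cocktail CD44loCD62L+ libraries. Of 23284 entries 6039 were listed at 0 in every library, Eef1a1 among them, so a listed 0 may be an estimate that failed. In bulk RNA, fewer cells of a type and less RNA per cell cannot be told apart.

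The sort marker CD44 and the CD8 T cell identity were checked first. Cd44 (chromosome 2, 102811141 to 102901665 of GRCm38) was at 31.9, 30.7 and 31.3 FPKM in the cocktail CD44loCD62L+ libraries and 7.25, 7.47 and 7.01 in the naive libraries, log2 fold change 1.97 ± 0.0261, adjusted p = 1.37e-16. Every cocktail CD44loCD62L+ library was above every naive library for this transcript, although both gates asked for low CD44. Libraries of these populations did not overlap for 89.2% of all tested genes. As the protein sets the gate, the sort itself bears on the Cd44 difference. The T cell receptor complex gene Cd3e was at 284, 284 and 289 against 298, 304 and 300.04 FPKM and the coreceptor gene Cd8a at 309, 309.8 and 309 against 468, 466 and 462, neither reaching the minimum fold. Cd8b1, for the other chain of the coreceptor, fell by 1.23 on the log2 scale, from 1064, 1048 and 1065 to 449.6, 452 and 454 FPKM. Cd4 was at most 0.333 FPKM in any of the 6 libraries. Both populations therefore carried the transcripts of CD8 T cells at high levels.

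Markers of B cells and neutrophils were higher in the naive libraries. The 13 B cell markers in the table summed to 52.9 to 54.1 FPKM in the naive and 3.87 to 4.02 in the cocktail CD44loCD62L+ libraries, where 3 of them were listed at 0 throughout, among them Ms4a1 and Pax5, and 9 of the 10 tested were lower (3 with a pseudocount of 5). The 17 erythroid, platelet and neutrophil markers summed to 30.5 to 34.8 against 1.97 to 2.30 FPKM, with 11 at 0 in the cocktail libraries and 4 at 0 in the naive libraries, and 4 of 5 tested (S100a8, S100a9, Ngp and Camp) were lower. The 31 dendritic cell and macrophage markers summed to 349 to 351 against 285 to 294 FPKM, and of the 19 tested 1 (Batf3) was higher and 4 (H2-Aa, H2-Eb1, Cd74 and Apoe) were lower. Of its abundant members, Cd74, the invariant chain of MHC class II, was at 10.1 ± 0.302 against 57.3 ± 0.609 FPKM (SD, n = 3), and Cst3, for cystatin C, at 110.3 ± 2.94 against 64.2 ± 1.72, the latter not called. Dendritic cell markers too low to be tested went both ways. Zbtb46 was at 0.319, 0.534 and 0.406 FPKM in the cocktail CD44loCD62L+ and 0.195, 0.158 and 0.137 in the naive libraries. Ccl22 was at 0.157, 0.394 and 0.295 against 0.0216, 0.0425 and 0.0214. Clec9a and Flt3 were listed at 0 in the cocktail CD44loCD62L+ libraries, against 0.0380, 0.0340 and 0.0229 and 0.0905, 0.0593 and 0.0399 FPKM. The 11 NK cell markers summed to 62.2 to 63.9 FPKM in the naive and 291 to 294 in the cocktail CD44loCD62L+ libraries. Most of that sum came from Gzma, Cd160, Il18r1 and Eomes, which activated CD8 T cells also express, and Ncr1, which defines NK cells, was at most 0.110 FPKM. Of 8 tested CD4 T cell markers 5 (Ctla4, Il2ra, Zbtb7b, Tnfrsf4 and Ikzf2) were higher and 2 (Cd40lg and Cxcr5) lower, most of them also genes of activated CD8 T cells. Zbtb7b, for ThPOK, the lineage factor of CD4 T cells, was at 7.67, 8.05 and 7.47 against 0.229, 0.235 and 0.237 FPKM. Of 2 tested gamma delta and innate T cell markers (Cd163l1 and Blk) both were lower, and of 3 tested stromal markers 0 were called.

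Of the 11242 genes tested, 1993 (17.7%) were called, 1306 (11.6%) higher and 687 (6.11%) lower in the cocktail CD44loCD62L+ cells. These shares are the background for every list count against naive cells. Higher genes made up 65.5% of the calls, and 55.4% after quantile normalization. The median log2 fold change over all genes was -0.02, with quartiles of -0.41 and 0.45. As technical replicates agree closely, 9956 genes passed the adjusted p at any size and the libraries of the 2 populations did not overlap for 10023 genes (89.2%), so the minimum fold, more than the test, set which genes were called. With a minimum log2 fold change of 2, 487 were higher and 140 lower. By root mean square distance over all tested genes (log2 units), the cocktail CD44loCD62L+ cells lay 1.06 from naive cells, 0.492 from the cocktail CD44+CD62L+ cells, 0.499 from the cocktail CD44+CD62L- cells and 0.905 from the IL-2 cells. Naive cells lay farther from each of the other 3 cultured populations, at 1.19, 1.20 and 1.38. The cocktail CD44loCD62L+ cells were thus nearer to naive cells than any other cultured population was, and nearer still to their own culture.

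**Figure D1:**
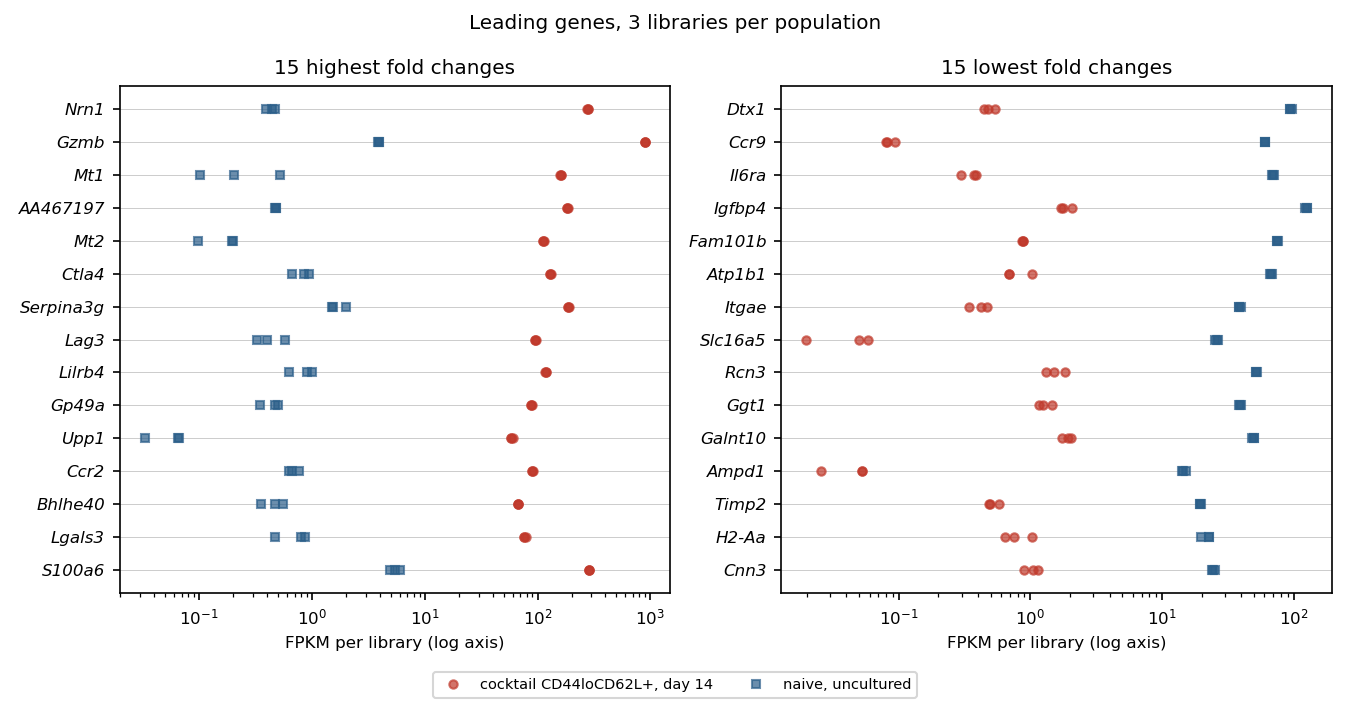
FPKM in each library (log axis) of the 15 most raised and the 15 most reduced genes between cocktail CD44loCD62L+ cells (red circles, n = 3 libraries) and naive cells (blue squares, n = 3 libraries). The libraries of the populations do not overlap for any of these 30 genes, as the rule that chose them required; Nrn1 is at 274 to 279.6 against at most 0.474 FPKM and Dtx1 at most 0.541 against 93.2 to 97.0 FPKM.

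The 15 genes with the highest fold changes were led by Nrn1 and Gzmb on the log2(FPKM + 1) scale. By the ratio of mean FPKM, Upp1 led the 15 at 1077, with Nrn1 at 633 and Gzmb at 230. Nrn1 (chromosome 13, 36725361 to 36735131), for neuritin, a small membrane-anchored protein first described in neurons, was at 279.6, 277 and 274 FPKM in the cocktail CD44loCD62L+ libraries and 0.474, 0.393 and 0.446 in the naive libraries, log2 fold change 7.60 ± 0.0276, adjusted p = 3.18e-22. Gzmb (chromosome 14, 56258838 to 56262260), for granzyme B, a protease of cytotoxic granules, was at 892, 896 and 900.04 against 3.96, 3.92 and 3.84 FPKM, log2 fold change 7.52 ± 0.00973, adjusted p = 7.62e-27. Both were almost silent in naive cells and among the well expressed genes of the cocktail CD44loCD62L+ cells, although the latter had been sorted for low CD44. In the IL-2 libraries Gzmb was listed at 0 throughout, and a listed 0 may be an estimate that failed, so its values are uncertain. The metallothionein genes Mt1 (162, 161 and 159.6 against 0.517, 0.102 and 0.205 FPKM) and Mt2 (113, 112 and 111 against 0.198, 0.195 and 0.0984 FPKM) encode small proteins that bind zinc and copper, and Upp1 (58.2, 57.960 and 60.4 against 0.0661, 0.0650 and 0.0328 FPKM) encodes uridine phosphorylase, an enzyme of pyrimidine salvage. The other 10 were AA467197, Ctla4, Serpina3g, Lag3, Lilrb4, Gp49a, Ccr2, Bhlhe40, Lgals3 and S100a6, with log2 fold changes of 5.49 to 6.97. Lilrb4 and Gp49a are near-identical neighbours and Serpina3g has close copies, so their separate values are uncertain.

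The genes with the lowest fold changes included receptors and surface enzymes of naive cells. Dtx1 (chromosome 5, 120680202 to 120711927), for deltex, a regulator of Notch signalling, was at 0.446, 0.541 and 0.476 FPKM in the cocktail CD44loCD62L+ libraries and 97.022, 93.2 and 93.6 in the naive libraries, log2 fold change -6.01 ± 0.0399, adjusted p = 1.23e-19. Ccr9, a chemokine receptor gene of gut homing, was at 0.0815, 0.0802 and 0.0931 against 61.1, 60.8 and 61.2 FPKM, and Il6ra, the ligand-binding chain of the IL-6 receptor, at 0.383, 0.298 and 0.373 against 70.5, 68.5 and 69.5 FPKM. Igfbp4, which encodes a binding protein of insulin-like growth factors and marks naive T cells, was at 1.77, 1.7011 and 2.08 against 123, 126 and 126 FPKM. These transcripts, between 60.8 and 126 FPKM in the naive libraries, were at most 2.08 FPKM in the cocktail CD44loCD62L+ libraries. Itgae, for the integrin chain CD103, was at 0.471, 0.341 and 0.422 against 38.6, 39.7 and 38.7 FPKM. The other 10 were Fam101b, Atp1b1, Slc16a5, Rcn3, Ggt1, Galnt10, Ampd1, Timp2, H2-Aa and Cnn3, with log2 fold changes of -5.34 to -3.66. H2-Aa, an MHC class II gene of antigen-presenting cells, was at 0.745, 0.637 and 1.03 against 22.8, 19.7 and 22.9 FPKM, and the B cell markers Cd79a (0.150, 0.123 and 0.199 against 9.0983, 9.13 and 9.82 FPKM) and Cd79b (2.79, 2.91 and 2.52 against 22.6, 22.5 and 22.8 FPKM) moved with it; their part in the H2-Aa difference was not tested. H2-Ab1, for the partner chain of H2-Aa, was at 20.3, 19.6 and 19.8 against 15.4, 14.040 and 15.5 FPKM and not called. Of the 30 genes at the 2 ends, 11 (Nrn1, Ccr9, Il6ra and Itgae among them) overlap a gene on the opposite strand, and whether counting used strand is not given in the sources used here.

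The naive and central memory gene list was lower in the cocktail CD44loCD62L+ cells than in naive cells, but most of its genes were above their level in the CD44+CD62L+ cells grown alongside. Of 30 listed genes, all tested, 0 were higher and 20 (66.7%) lower, beside 6.11% lower over all genes, with a median log2 fold change of -1.38 beside -0.02. Klf2, a transcription factor of quiescence and trafficking, was at 52.8, 53.4 and 51.9 against 335, 344 and 341 FPKM (log2 fold change -2.67 ± 0.0182, adjusted p = 1.54e-19), and its target S1pr1, the receptor for exit from lymph nodes, at 35.8, 34.7 and 35.5 against 175, 176 and 177 FPKM (-2.28 ± 0.0168, adjusted p = 3.18e-19). The lymph node entry receptor gene Ccr7 was at 137, 136 and 138 against 300.4, 301 and 301 FPKM, and Foxo1, the factor that drives Klf2 and Il7r, at 27.958, 27.6 and 27.7 against 59.016, 59.3 and 57.8. Their log2 fold changes, -1.13 and -1.05, were just past the minimum, and Foxo1 was not called with median-ratio scaling (-0.998) or a pseudocount of 5 (-0.96). Lef1, a partner of beta-catenin, was at 40.8, 41.8 and 42.7 against 128, 129.9 and 129 FPKM, log2 fold change -1.61 ± 0.0226. Its relative Tcf7 was at 379, 374 and 375 against 682, 681 and 677 FPKM, log2 fold change -0.85 ± 0.0394, which missed the minimum fold but passed it after quantile normalization at -1.14. For each of these genes all 3 cocktail CD44loCD62L+ libraries lay below all 3 naive libraries. Libraries of these populations did not overlap, in either direction, for 89.2% of all tested genes. Cd28 and Slamf6, costimulatory receptor genes on the same list, were above the naive level at 56.3, 55.9 and 55.9 against 30.959, 30.9 and 31.8 and 83.9, 83.9 and 82.8 against 48.8, 50.3 and 48.6 FPKM, log2 fold changes 0.82 and 0.75, neither called.

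Set against the cocktail CD44+CD62L+ cells, 26 of the 30 genes lay between the naive and the CD44+CD62L+ level, a share not computed over all genes. In the direct comparison of the cocktail populations, 6 of the 30 were higher and 0 lower in the CD44loCD62L+ cells, where 301 of 11242 genes (2.68%) were called, 47 (0.418%) higher and 254 (2.26%) lower. Klf2 was at 17.3 ± 0.357 FPKM (SD, n = 3) in the CD44+CD62L+ cells, log2 fold change CD44lo over CD44+ 1.55 ± 0.0182, adjusted p = 5.76e-16. S1pr1 was at 14.1 ± 0.118 FPKM there (1.27 ± 0.0168). Tcf7 (249 ± 2.41 FPKM in the CD44+CD62L+ cells), Ccr7 (76.2 ± 0.967) and Il7r (82.979 ± 0.624) were also below the CD44lo level but did not reach the minimum fold.

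**Figure D2:**
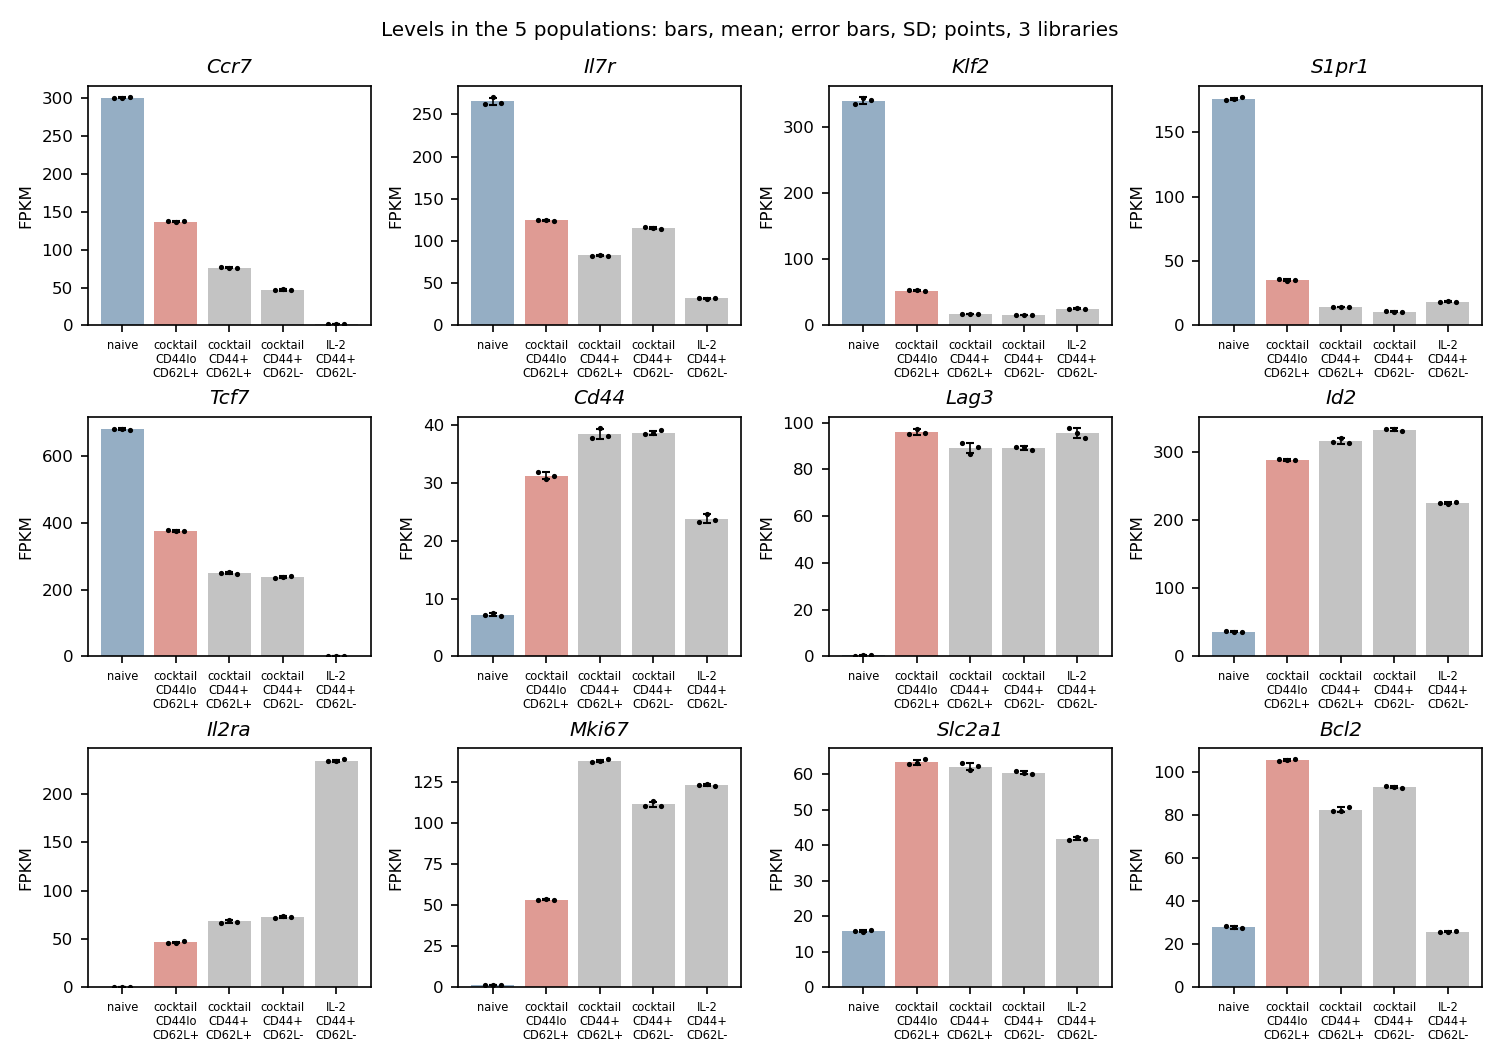
FPKM of 12 genes in the 5 sorted populations; bars are means, error bars the SD and points the 3 libraries of each population, with naive cells in blue and cocktail CD44loCD62L+ cells in red. Ccr7, Klf2, S1pr1 and Tcf7 step down from naive to cocktail CD44loCD62L+ to cocktail CD44+CD62L+ cells, Mki67 steps up, and Lag3, Id2 and Slc2a1 are above the naive level in all 4 cultured populations.

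Quiescence regulators gave a like picture. Of 34 tested genes 12 were lower and 1, Klf4, was higher, a called share of 38.2% beside 17.7% over all genes, with a median of -0.45. Klf4 (2.19, 2.55 and 2.48 against 0.501, 0.577 and 0.606 FPKM) lost its call after quantile normalization. Tsc22d3, a glucocorticoid-induced leucine zipper gene, was at 39.3, 38.003 and 38.4 against 229, 227 and 230.3 FPKM, and Btg1, an antiproliferative gene, at 66.3, 67.5 and 69.002 against 236, 238 and 235. Of 32 tested genes of the T cell receptor complex and T cell identity, 0 were higher and 7 lower, with a median of -0.42. The called share of 21.9% was near the 17.7% over all genes. The largest differences were those of Trat1, a receptor-associated adaptor (4.44, 4.77 and 3.84 against 37.3, 35.7 and 39.7 FPKM), and Cd7 (28.1, 27.9 and 26.8 against 190.2, 191 and 189 FPKM).

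The cocktail holds a GSK-3 inhibitor, which stabilises beta-catenin, so listed targets and regulators of beta-catenin were examined. Of 33 genes 22 were tested, 1 was higher and 9 lower, a called share of 45.5% beside 17.7% over all genes, with a median of -0.68. With a pseudocount of 5 only 3 were lower and 0 higher. Axin2, a widely used target gene, was at 2.13, 2.12 and 2.41 FPKM in the cocktail CD44loCD62L+ libraries and 11.1, 11.2 and 10.8 in the naive libraries, log2 fold change -1.90 ± 0.0378, adjusted p = 9.37e-15. The corepressor gene Tle1 was at 0.302, 0.231 and 0.368 against 5.21, 4.98 and 4.95 FPKM and the coactivator gene Bcl9l at 12.5, 12.3 and 12.5 against 58.950, 59.2 and 58.9. The higher member was Rnf43, a feedback inhibitor of Wnt receptors, at 2.95, 3.18 and 3.15 against 0.524, 0.590 and 0.545 FPKM, a call not made after quantile normalization. Myc, also a target, was at 87.5, 84.8 and 86.7 against 62.7, 61.8 and 65.5 FPKM, log2 fold change 0.44, not called. In the IL-2 cells Axin2 was at 1.30 ± 0.0460, Bcl9l at 7.59 ± 0.316, Tle1 at 4.23 ± 0.137 and Myc at 82.8 ± 0.965 FPKM (SD, n = 3). As the naive cells were not cultured, the inhibitor cannot be told apart from activation and culture here, and its effect was not tested.

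Effector genes were high in the cocktail CD44loCD62L+ cells despite the low-CD44 gate. Of 42 listed genes 40 were tested, 27 higher and 1 lower, with a median log2 fold change of 2.03. Gzma, for granzyme A, was at 124, 125 and 125 FPKM in the cocktail CD44loCD62L+ libraries and 5.68, 6.76 and 6.71 in the naive libraries, log2 fold change 4.09 ± 0.0422, adjusted p = 9.42e-18. Ifng, for interferon gamma, was at 5.22, 4.78 and 5.0042 against 0.173, 0.170 and 0.275 FPKM, log2 fold change 2.32 ± 0.0788, adjusted p = 3.22e-12. The death ligand gene Fasl was at 29.2, 30.2 and 28.3 against 0.330, 0.296 and 0.319 FPKM. The member that fell was Prf1, for perforin, the pore former that granzymes need to enter a target, at 14.7, 15.7 and 15.4 against 49.3, 48.969 and 48.5 FPKM (log2 fold change -1.62 ± 0.0359, adjusted p = 3.05e-14). Transcripts of both granzymes were thus above the naive level in every library, while perforin transcript was below it, at 0.312 of the naive mean. Between the CD44lo and CD44+ cells of the CD62L+ cocktail fraction, 0 of the 40 effector genes were called in either direction. Over all genes 2.68% were called in this comparison, so 0 among 40 lies near that share. Gzmb was at 1153 ± 4.17 FPKM in the CD44+ cells and was listed at 0 in the IL-2 libraries, where the estimate may have failed.

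Fate transcription factors went both ways. Of 29 tested 13 were higher and 5 (Klf2, Tox, Lef1, Id3 and Foxo1) lower, a called share of 62.1% beside 17.7% over all genes. The higher genes were Bhlhe40, Id2, Nfil3, Tbx21, Irf4, Irf8, Batf3, Ikzf2, Hif1a, Hopx, Rora, Myb and Klf4, the last also on the quiescence list. Id2, an inhibitor of E proteins that accompanies effector differentiation, was at 289.9, 288 and 287 against 37.1, 35.6 and 36.1 FPKM, log2 fold change 2.96 ± 0.0132, adjusted p = 2.62e-21. Its relative Id3, which is kept in naive and memory cells, was at 15.1, 15.2 and 16.018 against 43.3, 43.7 and 44.2 FPKM, log2 fold change -1.44 ± 0.0839. Tbx21, for T-bet, was at 15.6, 15.4 and 16.4 against 2.07, 2.5017 and 2.38 FPKM, log2 fold change 2.34. Eomes, the related factor of memory cells, was at 39.7, 40.2 and 39.9 against 19.3, 19.8 and 19.8 FPKM; at 0.99 it missed the minimum fold, which it passed at 1.02 to 1.04 under median-ratio scaling, quantile normalization and a pseudocount of 0.1. Prdm1, for Blimp-1, a factor of terminal effector cells, was low in both populations at 1.06, 1.03 and 0.992 against 0.183, 0.214 and 0.216 FPKM, with a log2 fold change of 0.75 that became 1.89 and was called with a pseudocount of 0.1. Bhlhe40, which controls cytokine production, was at 66.6, 67.1 and 66.4 against 0.465, 0.352 and 0.556 FPKM.

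Receptors that restrain T cells were high. Of 18 tested genes of the inhibitory receptor and exhaustion list 10 were higher and 2 lower, with a median of 1.70. Ctla4, a competitor of CD28 for its ligands, was at 131, 129.8 and 129 FPKM in the cocktail CD44loCD62L+ libraries and 0.845, 0.950 and 0.658 in the naive libraries. Lag3, a receptor for MHC class II, was at 95.007, 97.2 and 95.6 against 0.328, 0.399 and 0.574 FPKM, and Tigit at 36.9, 37.4 and 38.6 against 0.917, 1.04 and 1.27. Pdcd1, for PD-1, was at 13.9, 12.8 and 13.7 against 0.624, 0.534 and 0.998 FPKM, log2 fold change 3.08 ± 0.0730, adjusted p = 6.27e-14. The 4 receptor genes were at most 1.27 FPKM in every naive library and at least 12.8 in every cocktail CD44loCD62L+ library. The lower members were Tox, a transcription factor of exhausted cells (5.61, 5.6048 and 5.62 against 19.8, 21.2 and 20.8 FPKM), and Cd5, a receptor that tracks T cell receptor signalling (54.3 ± 1.3977 against 130.2 ± 2.24 FPKM, SD, n = 3).

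Most genes of the memory T cell list were higher. Of 18 genes, all tested, 11 were higher and 3 (Itgae, Cxcr4 and Cd69) lower, with a median of 1.62. Ccr2, a receptor for inflammatory chemokines, was at 89.2, 89.7 and 90.8 against 0.625, 0.666 and 0.763 FPKM. Cxcr3, a receptor of memory and effector cells for interferon-induced chemokines, was at 122, 121 and 123 against 11.8, 11.976 and 12.2 FPKM, log2 fold change 3.24 ± 0.0146, adjusted p = 2.79e-21. Cxcr4, the receptor for CXCL12, went the other way at 13.006, 12.8 and 12.2 against 117, 116 and 117 FPKM. The Ly6 genes Ly6a, for Sca-1, a marker of stem cell memory cells in the mouse, and Ly6c2 were at 1224, 1236 and 1219.9 against 84.6, 85.5 and 82.7 and 877, 885 and 882 against 82.4, 81.6 and 88.2 FPKM. Ly6c2 and Ly6c1 are near-identical copies and their split is uncertain. Of 7 tested Ly6 genes 4 were higher and 1 (Ly6d) lower. Of 15 tested integrin genes 3 (Itgb3, Itgb1 and Itga2) were higher and 2 (Itgae and Itga5) lower, 33.3% beside 17.7% over all genes. Of 12 tested Klr receptor genes 9 were higher and 0 lower, among them Klrk1, for the activating receptor NKG2D (71.7, 74.950 and 72.7 against 5.75, 6.43 and 6.1047 FPKM), and Klrc1, for NKG2A (65.5, 67.9 and 67.2 against 1.66, 0.968 and 1.39 FPKM). The related receptor gene Klrg1, which marks short-lived effector cells, was listed at 0 in all 3 cocktail CD44loCD62L+ libraries and at most 0.177 FPKM in naive cells.

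Among receptor chains for IL-7, IL-21 and IL-2, Il7r was lower and Il2ra and Il2rb were higher than in naive cells. Il7r, for the IL-7 receptor alpha chain, was at 124, 125 and 124 FPKM in the cocktail CD44loCD62L+ libraries and 263, 270.1 and 264 in the naive libraries, log2 fold change -1.09 ± 0.0146, adjusted p = 1.60e-16. Il21r was at 63.8, 62.2 and 64.3 against 121, 119 and 119 FPKM, log2 fold change -0.91, short of the minimum. Il2ra, for CD25, the alpha chain of the IL-2 receptor, was at 46.5, 45.8 and 47.6 against 0.534, 0.541 and 0.456 FPKM (4.98 ± 0.0224, adjusted p = 2.79e-21), and Il2rb, shared by the IL-2 and IL-15 receptors, at 245, 240.2 and 238 against 102, 104 and 104 FPKM (1.21). The chain common to these receptors, Il2rg, was at 509, 504 and 511 against 582, 574 and 569 FPKM and not called. IL-2 was not in the cocktail. Other receptor genes went both ways, 6 higher and 7 lower of 20 tested. Il12rb2, an IL-12 receptor chain, was at 53.6, 55.5 and 54.9 against 1.92, 2.02 and 1.98 FPKM, while Il6st, the signalling chain of the IL-6 family, was at 11.3, 11.3 and 11.2 against 71.7, 71.2 and 70.4 and Tgfbr2 at 38.1, 37.8 and 38.1 against 105, 103 and 106.

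Downstream of these receptors, 4 of 28 JAK, STAT and SOCS genes were higher and 1 lower, a called share of 17.9% beside 17.7% over all genes. Cish, a feedback inhibitor induced by STAT5, was at 94.8, 94.2 and 94.7 against 3.97, 4.17 and 4.28 FPKM, log2 fold change 4.22 ± 0.0167, adjusted p = 7.20e-22. The others were Socs2 (3.00), Stat2 (1.14) and Socs1 (1.05). Socs3, a feedback inhibitor induced by STAT3, was lower at 30.2, 28.9 and 29.6 against 75.1, 74.9 and 74.5 FPKM, log2 fold change -1.31. Of 27 secreted cytokine genes 17 passed the filter on low values and 11 of these were higher, 0 lower. Lif was at 32.8, 32.9 and 33.013 against 0.154, 0.0855 and 0.112 FPKM and Spp1, for osteopontin, at 31.030, 29.2 and 29.6 against 0.0856, 0.0843 and 0.0283, both close to silent in naive cells. Il2 did not pass the filter, with at most 0.263 FPKM in any of the 6 libraries. Of 7 tested chemokine genes 4 (Xcl1, Ccl4, Ccl3 and Cxcl10) were higher, with Xcl1, which attracts cross-presenting dendritic cells, at 79.7, 82.5 and 79.2 against 3.99, 2.31 and 1.98 FPKM.

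Costimulatory and survival genes were also shifted. Of 26 tested TNF superfamily genes 14 were higher and 2 (Cd40lg and Tnfrsf25) lower. Tnfrsf9, for 4-1BB, was at 47.8, 47.6 and 47.6 against 2.17, 2.19 and 2.02 FPKM, and Tnfsf4, for the ligand OX40L, at 15.8, 16.020 and 16.3 against 0.0247, 0.0973 and 0. Cd40lg was at 0.884, 0.949 and 0.586 against 7.64, 8.6960 and 7.05 FPKM. In the Bcl2 family 6 were higher and 1 lower of 17 tested. Of the higher genes, 5 encode inhibitors of apoptosis (Bcl2, Bcl2a1b, Bcl2a1d, Bcl2l1 and Bcl2l2) and 1 a promoter of it (Bcl2l11), and Bcl2a1b and Bcl2a1d are near-identical copies whose split is uncertain. Bcl2 was at 105, 105 and 106 against 28.7, 27.9 and 27.4 FPKM, log2 fold change 1.88 ± 0.0164, adjusted p = 1.73e-18. Bcl2l11, for its antagonist Bim, was at 61.4, 61.6 and 62.8 against 21.4, 20.8 and 20.8 FPKM, log2 fold change 1.52 ± 0.0150. Bbc3, for the antagonist Puma, was lower at 14.6, 15.1 and 14.8 against 39.8, 39.985 and 38.8 FPKM.

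**Figure D3:**
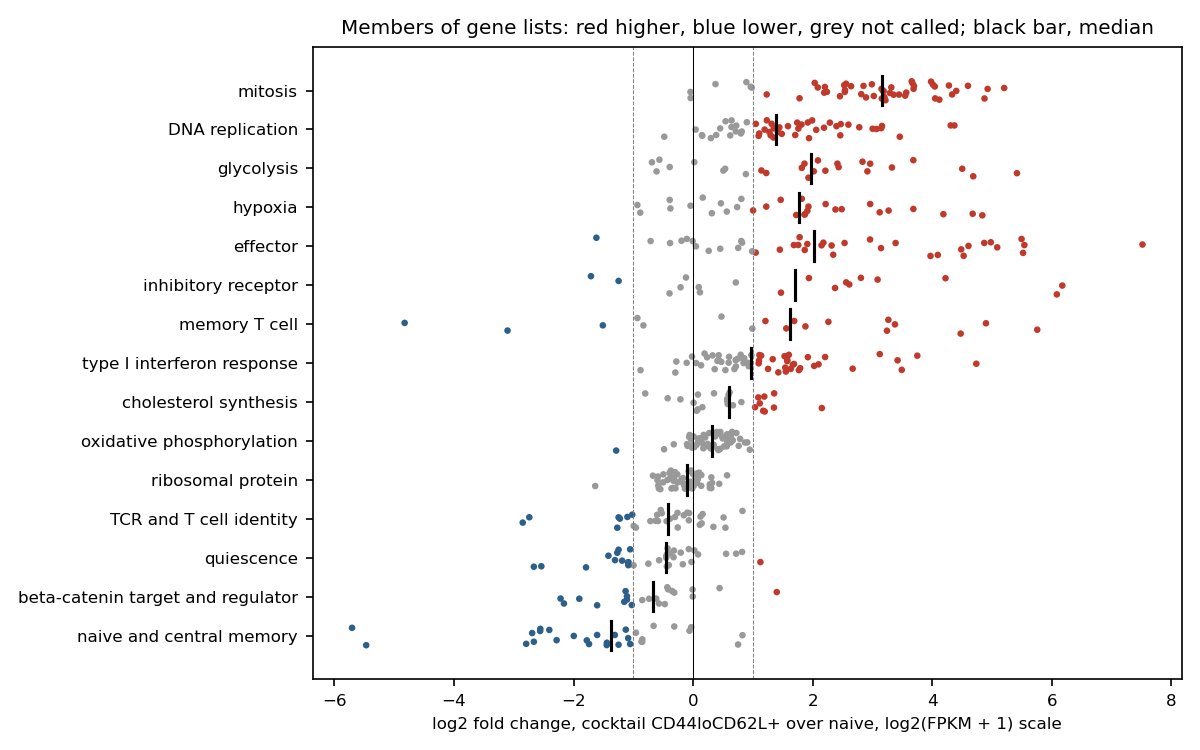
Log2 fold change (cocktail CD44loCD62L+ over naive, log2(FPKM + 1) scale) of every tested member of 15 gene lists; 1 point per gene, red called higher, blue called lower, grey not called, black bars the median of each list, dashed lines the minimum fold. Mitosis genes lie farthest to the right (median 3.17) and naive and central memory genes farthest to the left (median -1.38), with oxidative phosphorylation and ribosomal protein genes around 0.

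Cell cycle genes were far above the naive level. Of 52 mitosis genes, all tested, 46 were higher and 0 lower, with a median log2 fold change of 3.17. Of 52 DNA replication genes, all tested, 36 were higher and 0 lower, with a median of 1.38, and 22 were higher with a pseudocount of 5. Mki67, for the proliferation marker Ki-67, was at 53.3, 53.4 and 53.023 FPKM in the cocktail CD44loCD62L+ libraries and 1.27, 1.26 and 1.1988 in the naive libraries, log2 fold change 4.60 ± 0.0140, adjusted p = 4.87e-23. Cdk1, the kinase of entry into mitosis, was at 15.6, 15.9 and 15.6 against 0.392, 0.540 and 0.363 FPKM, and Rrm2, a ribonucleotide reductase chain that makes DNA precursors, at 56.6, 54.7 and 56.5 against 1.77, 1.94 and 1.92. Inhibitors of cyclin-dependent kinases were among the raised genes, with Cdkn1a, for p21, at 23.6, 25.4 and 25.2 against 0.0814, 0.0601 and 0.0202 FPKM. Of 16 tested D cyclin and kinase inhibitor genes 5 (Cdkn1a, Cdkn2a, Cdkn2c, Cdk6 and Cdkn2b) were higher and 0 lower. Cdkn1b, for p27, was at 65.7 ± 1.18 against 74.9 ± 0.700 FPKM (SD, n = 3) and not called.

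The cocktail CD44loCD62L+ cells were intermediate in these transcripts. Of the mitosis genes 50 of 52, and of the replication genes 51 of 52, lay between the naive and the cocktail CD44+CD62L+ level. The share of all genes that did so was not computed. The median mitosis gene was at 0.981 FPKM in naive, 17.6 in cocktail CD44loCD62L+ and 51.4 in cocktail CD44+CD62L+ cells, and the median replication gene at 7.31, 22.4 and 44.5 FPKM. In the direct test against the CD44+CD62L+ cells, 48 mitosis and 25 replication genes were lower and 0 higher, beside 2.26% lower and 0.418% higher over all genes. Mki67 was at 138 ± 0.766 FPKM (SD, n = 3) in the CD44+CD62L+ cells, log2 fold change CD44lo over CD44+ -1.35 ± 0.0140, adjusted p = 3.09e-16.

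**Figure D4:**
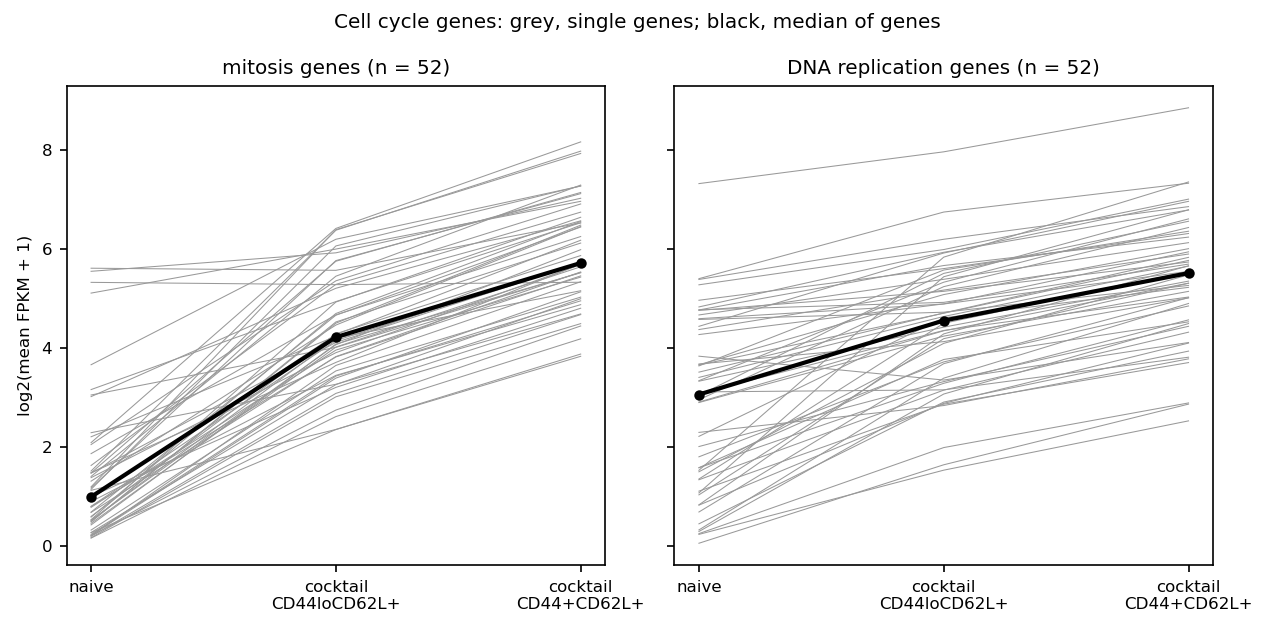
Mean level of each mitosis gene (left, n = 52 genes) and DNA replication gene (right, n = 52 genes) as log2(mean FPKM + 1) in naive, cocktail CD44loCD62L+ and cocktail CD44+CD62L+ cells; grey lines are genes and the black line joins the medians. The medians rise at each step, from 0.981 to 17.6 to 51.4 FPKM for mitosis genes.

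Promoters of mitosis genes are known for CCAAT boxes, bound by NF-Y, and for the cell cycle genes homology region, bound by the DREAM complex and MuvB with B-MYB. Both motifs, CCAAT and TTTGAA, were searched on either strand in the 250 bases before the RefSeq start (GRCm38.p6) of the 8009 tested genes that have a promoter in the table. CCAAT was present in 33 of 44 mitosis promoters (75%) and in 37.3% of all promoters, and TTTGAA in 15 of 44 (34.1%) and in 10.4% of all. The promoters of Ube2c and Ccnb2, the mitosis genes with the highest fold changes, show these letters, with matches in capitals and each sequence read 5′ to 3′ on the gene's strand.
Ube2c, chr2:164769679-164769928, plus strand: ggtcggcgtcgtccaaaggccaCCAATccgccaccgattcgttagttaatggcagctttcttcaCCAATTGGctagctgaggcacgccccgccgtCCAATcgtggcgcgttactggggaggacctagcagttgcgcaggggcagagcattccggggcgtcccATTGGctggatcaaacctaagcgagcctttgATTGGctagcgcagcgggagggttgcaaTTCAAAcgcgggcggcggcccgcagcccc
Ccnb2, chr9:70421555-70421804, minus strand: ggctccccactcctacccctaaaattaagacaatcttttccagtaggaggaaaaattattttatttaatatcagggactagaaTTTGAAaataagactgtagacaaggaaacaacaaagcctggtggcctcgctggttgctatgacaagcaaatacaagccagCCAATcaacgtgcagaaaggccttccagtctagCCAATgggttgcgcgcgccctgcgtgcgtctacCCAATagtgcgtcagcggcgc
Ube2c, a ubiquitin-conjugating enzyme of the anaphase-promoting complex, has 6 CCAAT matches, 2 of which overlap, and 1 TTTGAA match 24 to 29 bases before the start. Its level was 80.971, 85.8 and 81.1 FPKM in the cocktail CD44loCD62L+ and 1.05, 1.55 and 1.23 in the naive libraries. Ccnb2, for cyclin B2, has 3 CCAAT matches within 87 bases of the start and 1 TTTGAA match farther out, and was at 65.3, 65.6 and 65.9 against 1.1953, 1.46 and 0.953 FPKM. A match describes letters and does not show that a factor binds there.

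Glycolysis genes were above the level of uncultured naive cells in the cocktail CD44loCD62L+ cells, whose culture held an inhibitor of glycolysis. Of 27 listed genes 26 were tested, 18 were higher and 0 lower, with a median log2 fold change of 1.97. Of 30 tested hypoxia genes, some of them, such as Slc2a1 and Hk2, also on the glycolysis list, 19 were higher and 0 lower, with a median of 1.77. The glucose transporter genes Slc2a1 and Slc2a3 were at 62.9, 63.2 and 64.2 against 15.9, 15.7 and 16.2 and at 65.8, 66.2 and 64.4 against 17.5, 17.7 and 18.4 FPKM, log2 fold changes 1.93 and 1.82. Tpi1, for triosephosphate isomerase, was at 769, 763 and 768 against 28.4, 29.013 and 29.1 FPKM, and Gapdh, taken after its values were seen, at 4552, 4541 and 4565 against 455, 455 and 451. The libraries of the 2 populations did not overlap for any of these genes, which was also so for 89.2% of all tested genes. Some of these enzymes have processed pseudogenes in the mouse, and how their reads were shared is not given in the sources used here. In the IL-2 cells Slc2a1 was at 41.9 ± 0.490, Slc2a3 at 25.6 ± 0.128 and Tpi1 at 637 ± 2.05 FPKM (SD, n = 3), also above the naive level. Whether the inhibitor bears on any of these levels was not tested. Vegfa, a growth factor gene driven by hypoxia-inducible factors, was at 31.2, 30.4 and 31.5 against 0.0889, 0.157 and 0.118 FPKM (log2 fold change 4.84 ± 0.0511, adjusted p = 1.22e-17). It was also above the cocktail CD44+CD62L+ cells (14.6 ± 0.289 FPKM, SD, n = 3), log2 fold change 1.04 ± 0.0511, adjusted p = 6.30e-10.

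Hypoxia-inducible factors bind a core of ACGTG. It was present in 11 of 24 glycolysis promoters (45.8%) and in 22.8% of all 8009 promoters. Slc16a3, the listed gene with the highest fold change, and Pgk1, chosen after its values were seen, show it, with ACGTG on either strand in capitals.
Slc16a3, chr11:120948817-120949066, plus strand: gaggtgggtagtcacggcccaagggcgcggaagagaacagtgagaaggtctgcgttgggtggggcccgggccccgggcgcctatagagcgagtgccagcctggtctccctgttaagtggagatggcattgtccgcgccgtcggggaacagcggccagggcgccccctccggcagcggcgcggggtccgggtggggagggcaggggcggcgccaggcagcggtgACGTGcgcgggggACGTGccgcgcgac
Pgk1, chrX:106186850-106187099, plus strand: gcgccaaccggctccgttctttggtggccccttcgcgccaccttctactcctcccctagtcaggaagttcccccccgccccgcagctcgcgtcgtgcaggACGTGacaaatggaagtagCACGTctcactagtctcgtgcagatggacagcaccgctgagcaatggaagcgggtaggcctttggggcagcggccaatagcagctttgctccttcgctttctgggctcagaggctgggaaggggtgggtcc
Slc16a3, for the lactate exporter MCT4, has 2 matches within 27 bases of the start and was at 74.1, 75.9 and 77.1 FPKM in the cocktail CD44loCD62L+ and 0.913, 0.777 and 0.707 in the naive libraries. Pgk1, for phosphoglycerate kinase, has 2 matches between 127 and 150 bases before the start and was at 1521, 1532 and 1538 against 116, 118 and 119.9 FPKM.

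Other metabolic lists moved less. Of 60 oxidative phosphorylation genes, all tested, 0 were higher and 1 lower, with a median of 0.32, the lower one being Ndufa4 at 111, 122 and 123 against 293, 286 and 292 FPKM. Of 23 citrate cycle genes 1 (Pck2) was higher and 1 (Idh2) lower, and of 29 tested fatty acid oxidation genes 3 (Acadl, Decr1 and Acsl4) were higher and 1 (Lipa) lower, with medians of 0.09 and 0.05. Called shares of 1.67%, 8.70% and 13.8% in these 3 lists lay below the 17.7% over all genes. Of 25 tested cholesterol synthesis genes 9 were higher and 0 lower, with a median of 0.59, and 2 were higher with a pseudocount of 5. Sqle, for squalene epoxidase, was at 16.8, 17.1 and 17.5 against 3.0971, 3.05 and 3.11 FPKM, whereas Hmgcs1, an earlier step, was at 26.3, 27.2 and 27.9 against 17.9, 17.4 and 17.7 and not called. Of 15 pentose phosphate and serine synthesis genes 4 (Mthfd1l, Psat1, Tkt and Mthfd2) were higher, and of 14 tested fatty acid synthesis genes 2 (Scd2 and Fads2), with 0 lower in either list. Called shares were 26.7% and 14.3%, beside 17.7% over all genes, and the medians 0.58 and 0.16. Of 35 tested amino acid response genes 10 were higher and 0 lower, a called share of 28.6% beside 17.7% over all genes. With a pseudocount of 5, 6 were higher. Asns, for asparagine synthetase, was at 20.7, 20.4 and 21.6 against 0.121, 0.119 and 0.0999 FPKM (log2 fold change 4.30 ± 0.0307, adjusted p = 2.40e-19). Of 49 genes of Myc action and ribosome biogenesis 2 (Odc1 and Ncl) were higher and 2 (Utp20 and Heatr1) lower, and of 57 ribosomal protein genes 0 were called, with a median of -0.11. The 57 include Rps27, whose libraries were uneven at 12.9, 71.991 and 9.69 against 57.5, 57.3 and 94.8 FPKM, and which was called lower, at -2.50, without the second cocktail library.

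About as many type I interferon response genes were higher as were not called. Of 58 listed genes 57 were tested, 28 were higher and 0 lower, with a median log2 fold change of 0.97. The transmembrane antiviral gene Ifitm2 was at 55.4, 58.6 and 57.2 FPKM in the cocktail CD44loCD62L+ libraries and 0.990, 1.62 and 0.981 in the naive libraries, log2 fold change 4.74 ± 0.0802, adjusted p = 1.74e-15. Irf7, a transcription factor of the response, was at 196, 199 and 199.8 against 92.8, 91.7 and 91.4 FPKM, log2 fold change 1.10, and Irf1 was below the naive level at 131, 131 and 129 against 240.3, 242 and 239.6 FPKM, log2 fold change -0.88, not called. Of 21 MHC class I and immunoproteasome genes 2 (H2-Q7 and Psmb9) were higher, 1 after quantile normalization, and 0 lower. The called share was 9.52% beside 17.7% over all genes. Their median of 0.45 was at the upper quartile of all genes, so the list was shifted up by less than the minimum fold.

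The interferon-stimulated response element, searched on either strand as GAAA, any 2 bases and GAAA, was present in 17 of 39 promoters of listed interferon genes (43.6%), in 9 of the 18 promoters of those called higher, and in 2.78% of all 8009 promoters. The promoters of Ifitm2 and of 3 further genes chosen after their values were seen are shown, with matches in capitals.
Ifitm2, chr7:140955962-140956211, minus strand: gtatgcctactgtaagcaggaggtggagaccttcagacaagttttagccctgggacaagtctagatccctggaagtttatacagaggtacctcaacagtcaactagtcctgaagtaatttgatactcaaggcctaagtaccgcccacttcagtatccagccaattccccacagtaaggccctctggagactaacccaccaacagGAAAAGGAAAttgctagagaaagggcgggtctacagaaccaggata
Ifit3, chr19:34583279-34583528, plus strand: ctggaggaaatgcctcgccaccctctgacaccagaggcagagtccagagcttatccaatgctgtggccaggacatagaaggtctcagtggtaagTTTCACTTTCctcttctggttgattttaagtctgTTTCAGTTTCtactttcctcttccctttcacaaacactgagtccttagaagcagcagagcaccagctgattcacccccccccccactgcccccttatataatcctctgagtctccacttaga
Isg15, chr4:156200819-156201068, minus strand: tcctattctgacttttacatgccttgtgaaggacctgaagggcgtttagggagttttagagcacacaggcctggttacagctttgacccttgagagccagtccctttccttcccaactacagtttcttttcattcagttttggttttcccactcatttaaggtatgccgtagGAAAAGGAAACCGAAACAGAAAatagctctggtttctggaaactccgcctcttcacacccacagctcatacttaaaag
Rsad2, chr12:26456453-26456702, minus strand: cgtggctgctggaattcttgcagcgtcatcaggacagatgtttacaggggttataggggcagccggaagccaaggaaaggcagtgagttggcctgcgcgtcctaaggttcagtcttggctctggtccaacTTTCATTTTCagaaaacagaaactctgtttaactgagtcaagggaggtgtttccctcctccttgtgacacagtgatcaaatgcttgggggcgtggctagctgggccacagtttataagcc
Isg15, a ubiquitin-like protein gene, has 3 overlapping matches between 57 and 78 bases before the start and was at 125, 135 and 133 against 43.4, 42.2 and 38.992 FPKM. Ifit3, which binds viral RNA complexes, has 2 separate matches and was at 83.4, 81.5 and 83.2 against 24.1, 26.2 and 24.7 FPKM. Rsad2, for the antiviral enzyme viperin, has 1 match and was at 23.7, 24.5 and 24.6 against 5.05, 4.82 and 4.83 FPKM. The number of matches did not follow the fold change among these 4 genes: Ifitm2, with 1 match, had the highest fold change, and Isg15, with 3, the lowest at 1.63.

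Immediate early genes, which T cell receptor signals induce within a short time, went both ways. Of 33 tested immediate early genes 6 were higher and 11 lower, and after quantile normalization 3 were higher. Jun was at 74.2, 74.6 and 74.4 FPKM in the cocktail CD44loCD62L+ libraries and 23.2, 21.3 and 22.8 in the naive libraries, while its partner Fos was at 18.4, 19.8 and 18.9 against 64.7, 63.4 and 64.954. Zfp36, which destabilises cytokine transcripts, was at 40.4, 42.4 and 38.6 against 180.00, 175 and 177 FPKM, and Dusp10, a phosphatase of stress kinases, at 5.14, 5.04 and 5.54 against 30.4, 30.8 and 28.6. Of 24 NF-kappaB genes 1 (Traf1) was higher and 5 (Nfkbia, Ikbke, Nfkbid, Icam1 and Ikbkb) lower, a called share of 25% beside 17.7% over all genes, with a median of -0.31. The inhibitor gene Nfkbia, itself a target of the pathway, was at 52.050, 52.1 and 51.8 against 148, 149 and 151 FPKM. Of 13 tested heat shock genes 4 (Hsph1, Dnajb1, Dnaja1 and Dnajb4) were lower, a called share of 30.8% beside 17.7% over all genes. Hsph1, a co-chaperone of Hsp70, was at 17.4, 17.962 and 17.9 against 117, 118 and 119.7 FPKM. Of 27 endoplasmic reticulum chaperone genes 5 (Ero1l, P4hb, Atf6, Ddit3 and Xbp1) were higher and 1, Dnajb9, lower, a called share of 22.2% beside 17.7% over all genes, with a median of 0.11. With a pseudocount of 5, 3 were higher and 0 lower. Dnajb9 was at 7.39 ± 0.127 against 15.9 ± 0.460 FPKM (SD, n = 3), and its call was lost without naive library 3 or cocktail library 2. Of 17 metallothionein and zinc transport genes 5 (Mt1, Mt2, Mt3, Slc39a4 and Slc30a4) were higher and 1 (Slc39a10) lower, with Mt3 listed at 0 in all 3 naive libraries. Among 28 genes of DNA methylation and Polycomb, 5 (Uhrf1, Hells, Pcgf2, Phf19 and Ezh2) were higher and 1 (Tet3) lower, a called share of 21.4% beside 17.7% over all genes, with a median of -0.05. Uhrf1, which directs methylation to newly replicated DNA, was at 45.1, 44.5 and 44.1 against 4.55, 4.62 and 4.83 FPKM, and Dnmt3a, a methyltransferase of effector differentiation, at 10.048, 9.61 and 9.59 against 13.4, 13.6 and 14.1, not called.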

How the data were processed

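RNA-seq of mouse CD8 T cells was analysed from 1 table of FPKM values, deposited by the authors, with 23284 gene symbols in rows and 15 libraries in columns. Per the submitters' processing notes, TopHat2 2.0.9 and Cuffdiff 2.1.1 were used with the build mm10. Annotation, filters and use of strand: not given in the sources used here. Labels set the population of each library.

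A gene was kept if its mean reached 1 FPKM in at least 1 population, which left 11242. Values on the log2(FPKM + 1) scale were modelled by limma 3.58.1 (R 4.3.3; lmFit, then eBayes with trend), with all 15 libraries in the fit and no term besides population. Counts were not used here, so no count model was run, and by exact permutation 3 libraries against 3 allow no two-sided p under 0.1. On simulated data for the comparison with naive cells (10175 genes), calls were made for 0 of 50 genes altered 1.5-fold, 48 of 50 altered 3-fold, 50 of 50 altered 8-fold, 50 of 50 altered 20-fold and 1 unaltered gene. A 1.5-fold change lies under the minimum fold, so the 0 there was largely set by the calling rule. Altered genes were drawn from those at 5 FPKM or more in naive cells. The noise was normal, with the spread seen between technical replicates.

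The comparison, gene lists and list members were chosen with earlier results of these data known, so no list is independent evidence. Named genes were the 15 highest and 15 lowest fold changes among called genes that averaged 10 FPKM or more in the higher population, had no overlap between libraries and had no population listed at 0. Receptor gene segments, small RNAs and predicted genes were not eligible. Key genes fixed by name were added, and up to 3 members at each end of a list that reached 5 FPKM. Other named genes were chosen after their values were seen. Some genes are not reported here. Lists are described by counts and medians. Gene positions are GENCODE vM21 spans on GRCm38, and promoters come from RefSeq (GRCm38.p6), 250 bases before the start. Same-numbered libraries did not deviate together (correlations of -0.163, -0.128 and -0.141), so replicate numbers were not used as a block. Alternatives were other pseudocounts, filters, scalings, fold minimums and fits, and leaving out libraries. Plots used matplotlib 3.10.9 and Python 3.11.15.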

Additional observations from a re-analysis of the deposited data

How the results depend on the processing

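Among the 288 genes named by rule, no called gene changed its direction under any alternative, but which direction held more calls depended on the fold minimum. The count of genes called between cocktail CD44loCD62L+ and naive cells (1993, with 1306 higher and 687 lower) was 1014 (701 and 313) with a pseudocount of 5, which shrinks the fold changes of low genes. It was 9956 (4851 and 5105, so that lower calls outnumbered higher ones) with no fold minimum and 627 (487 and 140) at a log2 fold change of at least 2. Leaving out each library in turn gave 1990 to 2009 calls, 1304 to 1320 higher and 681 to 694 lower. Against the cocktail CD44+CD62L+ cells (301, with 47 higher and 254 lower) the counts were 495 with 126 higher at a pseudocount of 0.1, 178 (22 and 156) at a pseudocount of 5, 8251 (4100 and 4151) with no fold minimum and 12 (9 and 3, so that higher calls outnumbered lower ones) at a log2 fold change of at least 2. Leaving out a library gave 301 to 313, with 48 to 61 higher and 252 to 263 lower. With the replicate number as a block, although the numbers do not pair the libraries, 1993 genes were called against naive cells and 303 (49 higher) against the CD44+CD62L+ cells. Quantile normalization called 1974 genes, 1754 of them also called without it, and median-ratio scaling 2005, of which 1921 were shared; they moved the median of all genes to -0.09 and 0.03. Of these 288 genes, 26 gained or lost a call under the alternatives other than a changed fold minimum, for which single genes were not followed. Of the 26, 12 did so under a scaling and 2 (Dnajb9 and Rps27) without a library. The cause was not tested. Fragment numbers are unknown, so no counting interval is given, and the spread covers libraries of 1 RNA source per population only.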
